A study of Homo sapiens with 9 samples.

Results

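The genes described here are 10 histone lysine demethylases: KDM1A, KDM2A, KDM3A, KDM4A, KDM4B, KDM4C, KDM5B, KDM6A, KDM6B and KDM7A, which are 10 of the 36810 genes in the table. They were picked by name from the demethylase family because the family stood higher after 48 h of treatment in an earlier look at the same values, with no numeric threshold. The difference between 48 h and control is therefore given for them as a description, without a test, and it supports nothing here. The cells were 143B, a human osteosarcoma line, and messenger RNA was read in 9 libraries. The 3 control libraries were taken at 0 h, and 3 libraries each came from cells given 0.5 µM of XD23 for 24 h or for 48 h. XD23 is known here by its code name alone. The labels name neither a vehicle nor cells kept untreated to the later times, so time in culture and the compound cannot be told apart, and nothing says that the 3 libraries of a group were separate cultures. The p-values then measure only the spread between these libraries.

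Lysine demethylases remove methyl groups from histone tails. KDM1A does so with a flavin cofactor, while the others carry a JmjC domain that uses iron, 2-oxoglutarate and oxygen and releases succinate. The marks they act on are read as active (methylation of H3 lysine 4, written H3K4) or repressive (H3K9 and H3K27), or lie along transcribed gene bodies (H3K36). In bone-forming cells such enzymes are known for their part in switching genes during differentiation, and several JmjC enzymes are known targets of the hypoxia-inducible factor HIF.

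Levels are FPKM, fragments scaled to the length of the gene and to the depth of the library, so levels of different genes can be set side by side as amounts per length. The libraries held 18341542 to 22901830 fragments, worked out from the values. Of the markers of a mesenchymal osteosarcoma line, VIM, SPARC, FN1, RUNX2 and CD44 passed the filter of at least 1 FPKM in at least 3 of 9 libraries, while COL1A1, COL1A2 and THY1 did not. Of the 5 that passed, SPARC and RUNX2 were lower at 48 h than in control, with log2 differences of -0.56 ± 0.04 and -0.50 ± 0.05 (limma adjusted p = 4.9e-05 and 0.000189), and the others were not called. The summed level of the blood cell markers found in the table (4 of 6) was 0 to 0.235 FPKM. The endothelial markers summed to 0.399 to 0.522 FPKM in control, 0.272 to 0.322 at 24 h and 0.728 to 0.809 at 48 h, and the epithelial markers found (3 of 5) to 4.21 to 4.89 in control, 4.19 to 5.23 at 24 h and 3.35 to 3.80 at 48 h. EPCAM, the 1 epithelial marker that passed the filter, was lower at 48 h by a log2 difference of -0.38 ± 0.10 (limma adjusted p = 0.0186). The part of these markers in the results was not tested. Library 3 at 24 h stood apart from the other libraries of its group, as the values below show, and results that rest on it are given with and without it.

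The core of the hypoxia response element, ACGTG or GCGTG, was looked for in the promoters of all 10 genes. The promoters shown are those of the 4 genes with a stretch that overlapped no exon of GENCODE release 29. Each is the 250 bases before a RefSeq start site (GRCh38.p14), written 5′ to 3′ on the strand of the gene, and capitals mark ACGTG or GCGTG on either strand (CACGT and CACGC when the match is on the other strand). KDM6B lies at chr17:7833967-7834216, KDM4B at chr19:4968863-4969112, KDM4A at chr1:43649899-43650148 and KDM2A at chr11:67119013-67119262, all on the plus strand and outside the exons of GENCODE release 29.
KDM6B: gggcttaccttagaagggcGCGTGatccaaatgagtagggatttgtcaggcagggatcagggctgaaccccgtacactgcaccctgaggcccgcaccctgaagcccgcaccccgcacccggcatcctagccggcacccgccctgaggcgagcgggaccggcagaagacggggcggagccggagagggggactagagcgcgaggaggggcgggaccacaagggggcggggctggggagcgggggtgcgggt
KDM4B: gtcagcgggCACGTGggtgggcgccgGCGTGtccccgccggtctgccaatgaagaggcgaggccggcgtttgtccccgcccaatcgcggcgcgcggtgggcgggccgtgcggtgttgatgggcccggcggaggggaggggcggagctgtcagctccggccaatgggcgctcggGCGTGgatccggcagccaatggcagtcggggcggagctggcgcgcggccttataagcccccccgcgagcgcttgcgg
KDM4A: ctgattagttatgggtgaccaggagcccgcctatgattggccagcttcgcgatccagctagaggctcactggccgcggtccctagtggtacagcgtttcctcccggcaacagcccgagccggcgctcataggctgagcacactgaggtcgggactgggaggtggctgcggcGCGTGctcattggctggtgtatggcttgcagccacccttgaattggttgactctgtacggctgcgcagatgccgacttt
KDM2A: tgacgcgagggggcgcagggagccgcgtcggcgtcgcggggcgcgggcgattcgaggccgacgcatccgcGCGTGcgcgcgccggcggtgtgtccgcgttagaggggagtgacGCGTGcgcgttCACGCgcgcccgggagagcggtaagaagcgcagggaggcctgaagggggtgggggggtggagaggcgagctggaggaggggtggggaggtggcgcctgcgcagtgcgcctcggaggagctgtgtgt
KDM6B and KDM4A each held 1 GCGTG in this stretch, KDM2A held 3, and KDM4B held 2 GCGTG besides 1 CACGTG, in which ACGTG is read on both strands. KDM6B and KDM2A each have another RefSeq start site. Its 300 bases (chr17:7839667-7839966 and chr11:67239764-67240063) held neither ACGTG nor GCGTG. Those of KDM6B contain the gene start in GENCODE 29, which the stretch printed above does not. All 10 genes matched the RefSeq table, with 13 windows of 300 bases that run from 250 bases before to 50 after a start. ACGTG or GCGTG was found in at least 1 window of 10 of 10 genes and in 11 of the 13 windows. It was found for 71.9% of the 8920 protein-coding genes that passed the level filter and have a window, and in 48.4% of all 35116 windows of that length. ACGTG was found for 5 of the 10 genes (33.4% of those coding genes, 21.4% of all windows) and GCGTG for 10 (59.9% and 36.5%). CACGTG, which contains ACGTG, was found for KDM4B, KDM4C and KDM6A (13.0% and 7.26%). The AP-1 motif TGANTCA was found for KDM3A, KDM4C and KDM6A (6.66% of those coding genes, 7.71% of all windows). The GC content of the 13 windows was 53.0% to 77.0%, with a median of 58.7% over all windows, and a match of letters is a description and not a binding site.

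**Figure D1:**
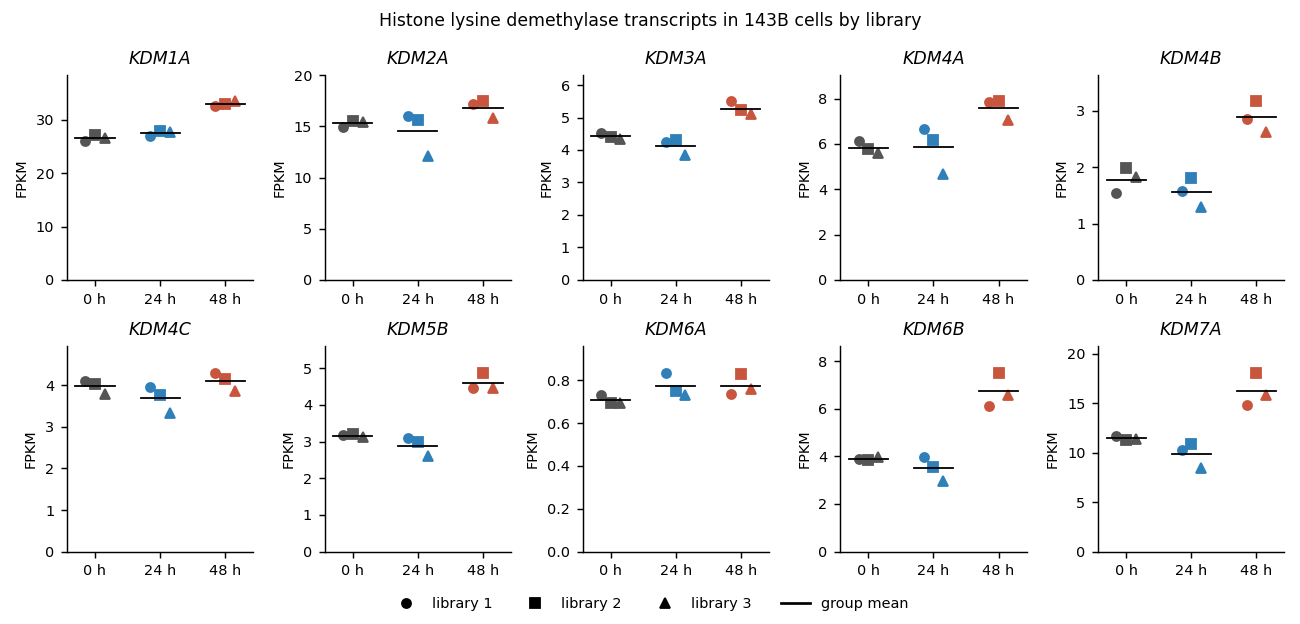
FPKM of the 10 demethylase genes in each of the 9 libraries, by time on XD23, each panel with its own axis from 0 and a line at the group mean. The 48 h libraries lie above the control libraries for 9 of the 10 genes, with KDM4C the exception, and library 3 at 24 h is the lowest of all for 8 of them.

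KDM1A (ENSG00000004487, chr1:23019443-23083689, GENCODE 29), the flavin enzyme that takes mono- and dimethyl marks off H3K4 within the CoREST complex, had the highest level per length of the 10 genes. Its level in control libraries 1, 2 and 3 was 26.1, 27.2 and 26.6 FPKM. At 24 h it was 27.0, 27.9 and 27.6 FPKM, and at 48 h 32.6, 32.9 and 33.5 FPKM. The control and 24 h libraries overlapped, and every 48 h library lay above both. Means were 26.6 ± 0.527, 27.5 ± 0.446 and 33.0 ± 0.426 FPKM (SD, n = 3 each), and on the log2(FPKM + 1) scale the 48 h mean was 0.30 ± 0.03 (SE) above control. KDM1A was the only gene of the 10 for which library 3 at 24 h did not lie below the mean of libraries 1 and 2, from which it differed by 0.676%. In bulk RNA, a change in the cells that carry a transcript and a change in its amount per cell cannot be told apart, here and for all genes that follow.

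KDM5B (ENSG00000117139, chr1:202724495-202809470, minus strand), a JmjC enzyme that removes the trimethyl mark from H3K4 at promoters, had 3.18, 3.20 and 3.11 FPKM before treatment. The 24 h libraries had 3.10, 2.98 and 2.60 FPKM, and the 48 h libraries 4.46, 4.87 and 4.46 FPKM. The 3 groups did not overlap: all 24 h libraries were below control and all 48 h libraries above it. The 24 h mean lay 0.10 ± 0.06 below control on the log2 scale, and the 48 h mean 0.43 ± 0.06 above it.

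KDM3A (ENSG00000115548, chr2:86440647-86492716) removes mono- and dimethyl marks from H3K9 and is a known target of HIF. Its control libraries held 4.52, 4.40 and 4.35 FPKM, its 24 h libraries 4.24, 4.32 and 3.86, and its 48 h libraries 5.50, 5.23 and 5.10. Here too the groups did not overlap, with 24 h lowest and 48 h highest, and the 48 h mean was 0.21 ± 0.05 above control on the log2 scale.

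KDM4A, KDM4B and KDM4C form the KDM4 group, which removes trimethyl marks from H3K9 and H3K36. KDM4A (ENSG00000066135, chr1:43650158-43705515) had 6.12, 5.76 and 5.58 FPKM in the control libraries, 6.68, 6.19 and 4.68 at 24 h, and 7.85, 7.88 and 7.05 at 48 h. The 24 h libraries lay on both sides of control, library 3 below and the others above, while all 48 h libraries were higher. The log2 difference at 48 h was 0.33 ± 0.10. The antisense gene KDM4A-AS1 shares 464 exon bases with KDM4A and was at 0.663 to 1.20 FPKM. Strand-specific counting is not stated, so fragments of the pair in those bases cannot be told apart. Another gene on the same strand, AL451062.3, shares 2077 exon bases with KDM4A and was at 0 to 0.0114 FPKM. How fragments in those shared bases were assigned is not stated.

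KDM4B (ENSG00000127663, chr19:4969113-5153595), also a known HIF target, had the lowest level of the 9 genes that passed the filter: 1.54, 1.98 and 1.82 FPKM in control and 1.59, 1.80 and 1.30 at 24 h. At 48 h it had 2.86, 3.17 and 2.63 FPKM. Control and 24 h overlapped, and 48 h lay above both in every library. The mean went from 1.78 ± 0.223 FPKM in control to 2.89 ± 0.273 at 48 h (SD, n = 3 each), a log2 difference of 0.48 ± 0.10, although the ratio of the means was 1.62. The pseudocount of 1 understates the change of a gene at this level.

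KDM4C (ENSG00000107077, chr9:6720863-7175648) was the 1 gene of the 10 whose 48 h libraries overlapped control. It had 4.11, 4.02 and 3.80 FPKM in the control libraries, 3.97, 3.77 and 3.34 at 24 h, and 4.30, 4.16 and 3.86 at 48 h. The log2 difference at 48 h, 0.04 ± 0.06, was smaller than its own standard error. Another gene on the same strand, AL354707.1, shares 135 exon bases with KDM4C and stood at 0.102 to 0.330 FPKM.

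KDM7A (ENSG00000006459, chr7:140084746-140177035, minus strand), which removes dimethyl marks from H3K9 and H3K27, had 11.7, 11.3 and 11.4 FPKM in control. Its 24 h libraries had 10.3, 10.9 and 8.48 FPKM, all below control, and its 48 h libraries 14.8, 18.1 and 15.9 FPKM, all above it. The log2 difference from control was -0.20 ± 0.09 at 24 h and 0.47 ± 0.09 at 48 h. The 48 h libraries spread over a wider range than the control libraries, with library 2 the highest.

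KDM2A (ENSG00000173120, chr11:67119269-67258087), which removes mono- and dimethyl marks from H3K36 and binds unmethylated CpG islands, had 14.9, 15.5 and 15.4 FPKM in the control libraries, 16.0, 15.6 and 12.1 at 24 h and 17.2, 17.5 and 15.8 at 48 h. Its 48 h libraries lay above control by a small margin, with a log2 difference of 0.13 ± 0.09. Library 3 at 24 h differed from the mean of libraries 1 and 2 by -23.5%.

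KDM6A and KDM6B both remove di- and trimethyl marks from H3K27. KDM6B (ENSG00000132510, chr17:7839904-7854796), known as JMJD3, had 3.91, 3.83 and 3.99 FPKM in the control libraries, 3.96, 3.56 and 2.98 at 24 h and 6.14, 7.51 and 6.59 at 48 h. The control and 24 h libraries overlapped, and the 48 h libraries were far above both. Its 48 h mean was 1.72 times control and its log2 difference, 0.65 ± 0.09, was the largest of the 9 genes in the fit.

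KDM6A (ENSG00000147050, chrX:44873177-45112602), known as UTX, did not pass the level filter, so it is absent from the fit. Its levels were 0.730, 0.694 and 0.694 FPKM in the control libraries, 0.835, 0.751 and 0.732 at 24 h, and 0.735, 0.831 and 0.758 at 48 h. Both treated groups lay above all control libraries, but the lowest 24 h library (0.732 FPKM) barely exceeded the highest control library (0.730 FPKM). The log2 difference of the means from control was 0.05 at 24 h and 0.06 at 48 h. At 24 h a two-sided exact permutation test over 20 splits gave p = 0.1, the smallest that 3 against 3 libraries allow. The values fit a gene length of 27742 bases, where GENCODE 29 gives 7139 exon bases. If all its fragments lay in the latter, KDM6A would stand at 2.70 to 3.24 FPKM. Its place below the filter may thus rest on the gene model. KDM6A was counted from 353 to 528 fragments per library, the fewest of the 10, while KDM2A reached 4149.

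In control, the order of the levels per length was KDM1A, KDM2A, KDM7A, KDM4A, KDM3A, KDM4C, KDM6B, KDM5B, KDM4B and KDM6A. Neighbours in this order did not overlap over the 3 control libraries, except KDM4C and KDM6B. The last place of KDM6A rests on the gene length behind the values. On the GENCODE 29 length its control libraries would stand at 2.70 to 2.84 FPKM, above those of KDM4B. At 48 h KDM2A and KDM7A overlapped, as did KDM4A and KDM6B, and KDM6B stood above KDM3A and KDM4C. The summed level of the 10 genes was 77.2 ± 0.617 FPKM in the control libraries, 74.4 ± 5.79 at 24 h and 98.1 ± 3.53 at 48 h (SD, n = 3). Without library 3 the 24 h sums were 77.7 and 77.7 FPKM, within the control range of 76.8 to 77.9, and that library alone was at 67.7 FPKM. Among all 9 libraries and the 9 genes in the fit, Pearson r between pairs of genes on the log2 scale was 0.345 to 0.995 (36 pairs), values that share the 48 h libraries and their depth and are a description.

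**Figure D2:**
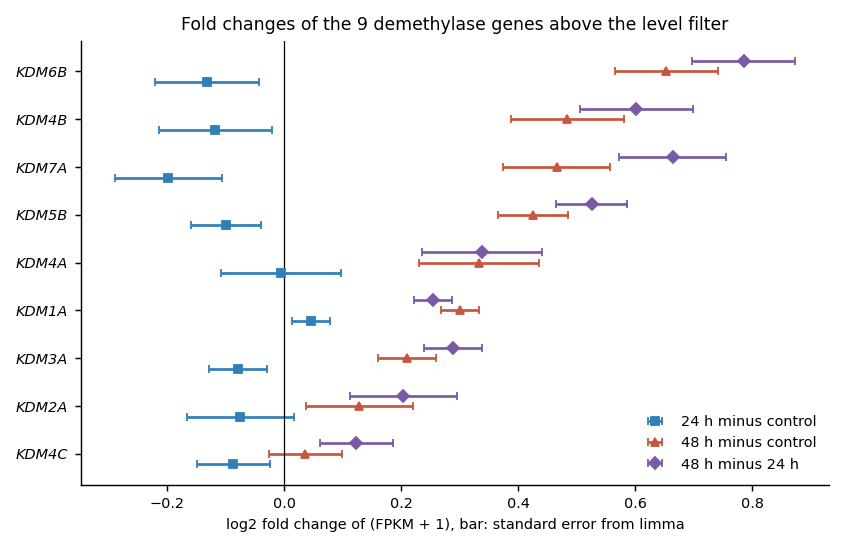
Log2 fold changes of (FPKM + 1) for the 9 demethylase genes that passed the filter, with standard errors from limma, for each pair of groups. The 24 h values lie between -0.20 and 0.05, and the 48 h values against control between 0.04 and 0.65.

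The 24 h comparison was not used to pick the genes, though it shares the 3 control libraries with the one that was. None of the 9 genes in the fit passed an adjusted p of 0.05 (limma, Benjamini-Hochberg over 13657 genes), with adjusted p from 0.678 for KDM7A to 0.994 for KDM4A. No gene of the 9 had an unadjusted p under 0.05, the smallest being 0.0594 for KDM7A. Over all genes 0.0% were called higher and 0.00732% lower at 24 h, where the 1 call was RNU6-548P, a pseudogene of U6 small nuclear RNA, while 379 genes were higher and 636 lower at an unadjusted p under 0.05. The 9 log2 differences had a median of -0.09. KDM1A alone was above 0, at 0.05 ± 0.03. KDM3A, KDM5B and KDM7A were below all control libraries (3 of 10, where 8.38% of genes tested were), and KDM6A was above all of them (1 of 10, where 4.81% were).

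Library 3 at 24 h was apart in these values. It was the lowest of the 9 libraries for 8 of the 10 genes, where it was the lowest for 25.6% of all genes tested, and for 12 of 20 related genes described further on. Against the mean of the other 24 h libraries it differed by -27.2% for KDM4A, -23.2% for KDM4B and -20.7% for KDM6B. Its log2 difference from those libraries had a Pearson r of -0.09 with log2 exon length over 13586 genes (Spearman rho -0.32), and the part of length in the members' values was not tested in that library. Without it, the 24 h log2 difference was -0.10 ± 0.07 for KDM7A, -0.04 ± 0.05 for KDM5B and -0.04 ± 0.04 for KDM3A. It turned to 0.12 ± 0.06 for KDM4A and 0.05 ± 0.05 for KDM2A, again with no gene of the 9 called.

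At 48 h against control, the comparison the genes were picked on, 9 of 10 lay above all control libraries, beside 22.7% of all genes tested. The median log2 difference of the 9 in the fit was 0.33, against -0.02 over all genes tested. Nothing is read from these values, since the choice of genes fixed them. Against 24 h, with the same 48 h libraries, 7 of 10 genes lay above all 24 h libraries (23.1% of all genes did). The log2 differences ran from 0.12 ± 0.06 for KDM4C to 0.79 ± 0.09 for KDM6B and are a description for the same reason.

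Over 13586 genes the log2 difference between 48 h and control had a Pearson r of 0.20 with log2 exon length (Spearman rho 0.22). The genes in the fit are long, with a median of 10323 exon bases against 4354 over all genes tested. After a smooth fit on length was taken off, the 48 h differences were 0.64 for KDM6B, 0.44 for KDM4B, 0.43 for KDM7A, 0.38 for KDM5B, 0.34 for KDM4A and 0.30 for KDM1A. KDM3A was at 0.17, KDM2A at 0.09 and KDM4C at 0.00. The shift of KDM4C, from 0.04 to 0.00, was smaller than its standard error of 0.06. The part of length in these differences was not tested.

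**Figure D3:**
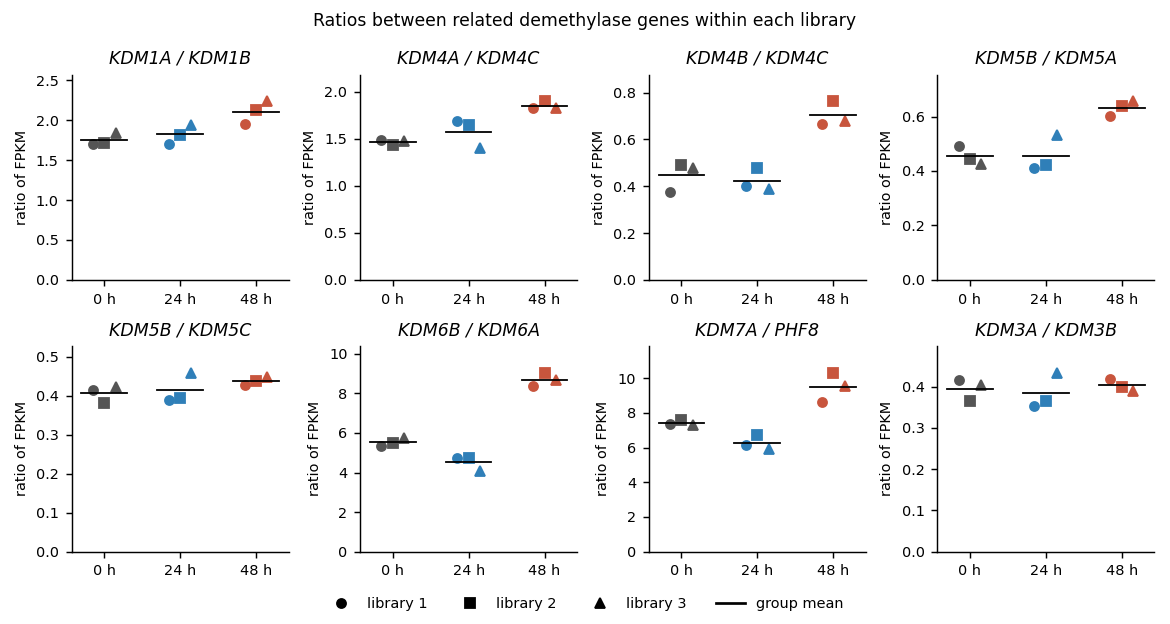
Ratio of FPKM between a listed demethylase and a related gene within each library, with a line at the group mean. The ratio of KDM6B to KDM6A lies between 8.35 and 9.03 at 48 h, above its 5.36 to 5.75 in control, while the ratio of KDM3A to KDM3B overlaps between groups.

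Ratios within a library compare related genes without the scaling of the library, though those of the 48 h group still follow from the choice of genes. KDM6B stood at 5.54 ± 0.198 times KDM6A in control, 4.52 ± 0.385 at 24 h and 8.69 ± 0.340 at 48 h (SD, n = 3), and no library of a group overlapped another group. The size of this ratio depends on the gene model of KDM6A. Its change between groups does not depend on the length used, but it may depend on which bases were counted. This was not tested. KDM4B to KDM4C went from 0.449 ± 0.0648 in control to 0.703 ± 0.0523 at 48 h, and KDM4A to KDM4C from 1.46 ± 0.0279 to 1.85 ± 0.0403. KDM5B to KDM5A, another remover of the H3K4 trimethyl mark, went from 0.454 ± 0.0347 to 0.632 ± 0.0276. KDM5B to KDM5C, which acts on the same mark, was 0.407 ± 0.0212 in control and 0.438 ± 0.00991 at 48 h. KDM1A to KDM1B, the other flavin enzyme, was 1.76 ± 0.0751 and 2.11 ± 0.141, and KDM7A to its relatives PHF8 and PHF2 was 7.41 ± 0.167 and 1.64 ± 0.146 in control and 9.49 ± 0.839 and 2.17 ± 0.325 at 48 h. The ratios of KDM3A to KDM3B (0.395 ± 0.0266 and 0.403 ± 0.0142) and of KDM2A to KDM2B (7.58 ± 0.372 and 7.75 ± 0.356) overlapped between control and 48 h.

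Other demethylases and JmjC proteins form the nearest comparison, and 20 of 21 listed were found in the table. The 16 that passed the filter had a median log2 difference of 0.06 at 48 h, and 3 were called higher and 1 lower (13.3% and 15.2% of all genes tested). Against 24 h, 3 were called higher and 2 lower (16.0% and 16.3% of all genes). KDM5C, which removes di- and trimethyl marks from H3K4, rose from 7.80 ± 0.512 to 10.5 ± 0.588 FPKM (log2 difference 0.39 ± 0.10, limma adjusted p = 0.0245), and JMJD6, a hydroxylase, from 3.43 ± 0.0775 to 4.61 ± 0.149 (0.34 ± 0.05, adjusted p = 0.00117). JARID2, a PRC2 partner without demethylase activity, rose by 0.22 ± 0.05 (adjusted p = 0.008). HSPBAP1 fell by 0.22 on the log2 scale (SE 0.06, adjusted p = 0.0233). The calls of KDM5C and HSPBAP1 were lost when control library 1 or 3 or 48 h library 1 or 2 was left out. None of the 16 was called at 24 h, where 1 of all 13657 genes tested was called. RIOX1 had the smallest unadjusted p of the 16 there, 0.0371 (limma). KDM8, HR, JMJD4 and JMJD7 did not pass the filter.

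**Figure D4:**
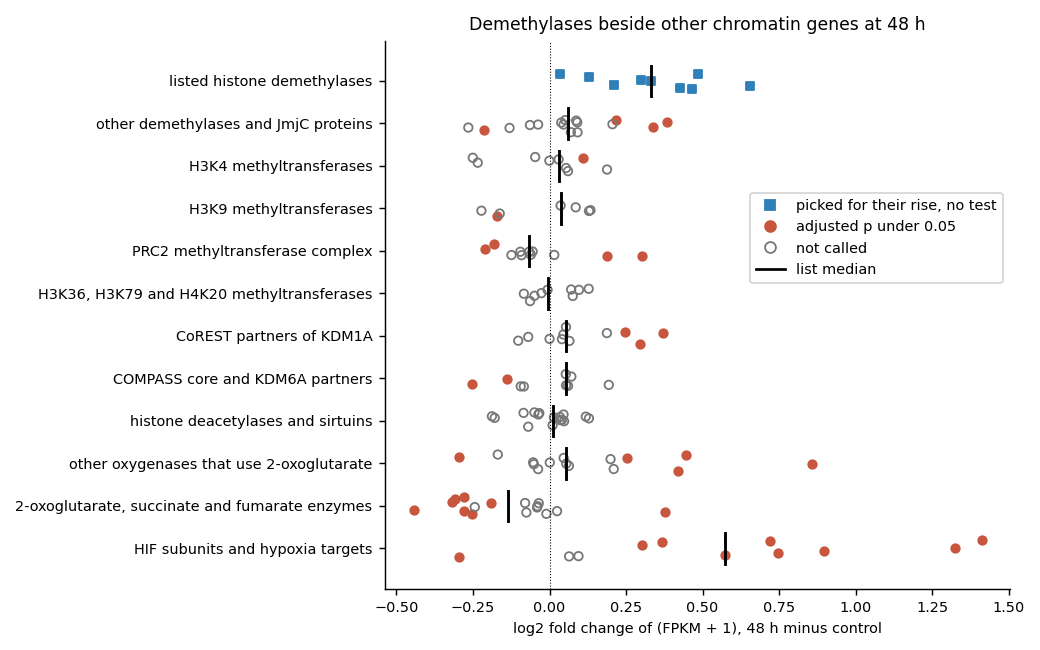
Log2 fold change of (FPKM + 1) at 48 h against control for the genes of each list that passed the filter, with a line at each list's median. The demethylases picked for their rise are shown as squares, and filled circles passed an adjusted p of 0.05. The median of the HIF subunits and hypoxia targets, 0.57, is the highest.

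The enzymes that write the marks are given by their counts, beside the 13.3% of all genes called higher and 15.2% called lower at 48 h. Among 9 tested H3K4 methyltransferases 1 was called higher and none lower at 48 h (median 0.03), the call being SMYD2 at 0.11 ± 0.03, lost in 9 of the 17 alternative settings that give a test. Of 7 H3K9 methyltransferases 1 was called lower, SUV39H2, which fell by 0.17 (SE 0.05, adjusted p = 0.0236). That call was lost without control library 2 or 3 or without 48 h library 2 or 3. None of 9 methyltransferases for H3K36, H3K79 and H4K20 was called, and none of 16 histone deacetylases and sirtuins. In PRC2, the complex that writes the H3K27 mark that KDM6A and KDM6B remove, 2 of 11 were called higher and 2 lower (median -0.07). EPOP rose by 0.30 ± 0.06, and the histone-binding subunits RBBP7 and RBBP4 fell by 0.21 and 0.18. The call of RBBP7 was lost without 48 h library 1 or 2, and AEBP2, the other gene called higher, lost its call in 10 of the 17 settings.

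The partners of the demethylases were also read, beside the 13.3% of all genes called higher and 15.2% called lower at 48 h. Of 11 listed partners of KDM1A in the CoREST complex, 3 were called higher and none lower at 48 h (median 0.05). RCOR1, the scaffold of the complex, rose from 10.9 ± 0.464 to 14.3 ± 0.318 FPKM (0.37 ± 0.05, adjusted p = 0.000667), and PHF21A, its reader of unmethylated H3K4, rose by 0.30 ± 0.08. The call of PHF21A was lost without any 1 of the control libraries and without 48 h library 2. Of 9 genes of the COMPASS core and the partners of KDM6A, PAGR1 and WDR5 were called lower, by 0.25 and 0.14, and none higher. The call of WDR5 was lost in 12 of the 17 settings. PAGR1 lost its call in 11, and it had no test in the setting with a filter at 5 FPKM.

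JmjC enzymes use 2-oxoglutarate and are inhibited by succinate and fumarate. Of 16 genes for enzymes that make or use these metabolites, 7 were called lower and 1 higher at 48 h, with a median of -0.13. Over all genes tested, 15.2% were called lower and 13.3% higher. GOT1, the cytosolic aspartate aminotransferase, fell by 0.44 (SE 0.04), from 52.7 ± 1.43 to 38.5 ± 0.995 FPKM. SDHD, a subunit of succinate dehydrogenase, fell by 0.32 (SE 0.07), a call lost without control library 1 or 48 h library 2, and IDH2, the mitochondrial isocitrate dehydrogenase, rose by 0.38 ± 0.05. Among 15 other oxygenases with the same cofactor 4 were called higher and 1 lower (13.3% and 15.2% of all genes tested). The collagen hydroxylases P4HA2 and PLOD1 rose by 0.86 ± 0.09 and 0.44 ± 0.05, and ALKBH3 fell by 0.29.

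KDM3A and KDM4B are known HIF targets, so the other genes of a list of HIF subunits and hypoxia targets were set beside them. Of the 11 others tested 8 were called higher at 48 h and 1 lower (13.3% and 15.2% of all genes tested). Their median log2 difference was 0.57, while KDM3A and KDM4B stood at 0.21 and 0.48. Like the other lists, this list was written with earlier results of these data known. The HIF subunits HIF1A and ARNT were not called (0.06 ± 0.04 and 0.09 ± 0.05). The part of HIF in the values of the demethylases was not tested. ADM, which encodes adrenomedullin, rose from 6.26 ± 0.753 to 18.3 ± 2.18 FPKM (1.41 ± 0.10), and NDRG1 from 8.82 ± 0.576 to 23.7 ± 2.90 (1.32 ± 0.09). EPAS1, an oxygen-regulated HIF subunit, fell by 0.29, a call lost without control library 2 or 3 or 48 h library 1 or 3. At 24 h none of these lists had a called gene, but only 1 of all 13657 genes tested was called there. The absence of calls therefore says nothing particular about the lists.

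The genes whose levels most resembled those of KDM6B, the gene with the largest 48 h difference, were KDM5B (Pearson r 0.995), DTX3L (0.993) and C2CD2 (0.993) over the 9 libraries. For KDM4C, the gene with the smallest, they were ZNF266 (0.969), DGKE (0.956) and BAHD1 (0.953). These are the highest of all protein-coding genes tested, and share the 9 libraries.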

How the data were processed

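Polyadenylated RNA of 143B cells was sequenced in 9 libraries of 3 groups. The authors deposited FPKM per gene and library; HISAT2, featureCounts, Subread, DESeq2 and hg38 are named per the submitters' processing notes, with versions, annotation and strand setting not given in the sources used here. Symbols came from a table of gene names and GENCODE 29 (36805 of 36810 genes matched), positions and exon lengths from GENCODE 29 (35585), promoters from RefSeq GRCh38.p14. Library totals were worked out from the values, which were whole fragments to within 0.001 for 20926 genes (58.8% of those in GENCODE 29).

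Genes with at least 1 FPKM in at least 3 of 9 libraries (13657) were tested on log2(FPKM + 1) with limma 3.58.1 in R 4.3.3, 1 mean per group, all libraries, 6 residual degrees of freedom, two-sided, with Benjamini-Hochberg adjustment, and called at an adjusted p under 0.05. A fold change on this scale understates the change of low genes. The fit was tested on simulated data. The members and the gene lists were chosen with earlier results of these data known. All members are named, with up to 2 called genes each way per list at 48 h, any related demethylase tested, and the 3 coding genes most correlated with the members of the largest and smallest 48 h difference. Alternatives changed the pseudocount, filter, scaling, groups in the fit, replicate block, library set and exon length correction.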

Additional observations from a re-analysis of the deposited data

Results flagged for a closer look

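KDM3A, KDM5B and KDM7A lay below every control library at 24 h and above every control library at 48 h. Their log2 difference at 48 h exceeded that at 24 h by 0.29, 0.53 and 0.66. This is a description: no test of it is given or used, since the genes were picked on the 48 h libraries. The margin below control at 24 h was narrow for KDM5B (3.10 against 3.11 FPKM) and KDM3A (4.32 against 4.35 FPKM). After the correction for exon length, the 24 h log2 difference from control was -0.15 for KDM7A, -0.018 for KDM3A and -0.016 for KDM5B.

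For genes that are no members, 20 of 35 looked at differed between the times by limma (adjusted p 2.04e-05 to 0.0412), where 16.0% of all genes tested were higher and 16.3% lower. Apart from the relatives, these genes were named because they were called at 48 h against control, so the count is a description. The values are given here as the log2 difference at 48 h minus that at 24 h. Among demethylase relatives it was 0.52 for KDM5C, 0.34 for JMJD6, 0.27 for JARID2, -0.27 for RIOX1 and -0.28 for HSPBAP1. Among writers and partners it was -0.30 for SUV39H2, -0.29 for RBBP4, -0.22 for RBBP7, 0.27 for EPOP, 0.43 for RCOR1, 0.38 for PHF21A and -0.13 for WDR5, whose call was lost in 14 of the alternative settings. Among the oxygenases and metabolic enzymes it was 0.92 for P4HA2, 0.51 for PLOD1, -0.32 for ALKBH3, 0.50 for IDH2, -0.41 for SDHD and -0.47 for GOT1. ADM and NDRG1, the hypoxia targets, differed by 1.58 and 1.51. All of these genes share the 48 h libraries with the members.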

How the results depend on the processing

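Of 18 alternative settings, 9 left out a library. The 24 h member calls were 0 in each of the 17 that give a test. The sign of the 24 h log2 difference reversed for KDM4A with median-of-ratios scaling (0.015), quantile normalization (0.022) and exon length correction (0.0077). With a library left out it was -0.094 to 0.12 for KDM4A, above 0 without control library 1 or 24 h library 3 (0.12), and -0.14 to 0.045 for KDM2A, above 0 without 24 h library 3. At 24 h the genes called higher were 2 without the filter, 2 with quantile normalization and 1 when each library was rescaled to the same sum, and 0 to 1 with a library left out. Genes called lower were 2 with quantile normalization, 0 with only the groups compared, 0 with the replicate block and 0 to 1 with a library left out. At 48 h the genes called lower were 1371 to 2771 with a library left out and the genes called higher 1213 to 2361. The causes were not tested.

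With the replicate block, 1726 genes were called higher and 2007 lower at 48 h, beside 1811 and 2080 without it. Deviations of same-numbered libraries correlated at -0.0571 to 0.239, over 0.1 in 2 of 9 pairs. With 3 libraries per group, these values cannot tell whether the numbers pair the libraries. Calls of named genes that were lost in some of the 17 settings with a test (number of settings in brackets) were AEBP2 (10), PAGR1 (11), WDR5 (12), SMYD2 (9), HSPBAP1 (7), EPAS1, KDM5C, PHF21A and SUV39H2 (5 each), and RBBP7 and SDHD (2 each). HSPBAP1, PAGR1 and PHF21A did not pass the filter at 5 FPKM, so they had no test in that setting. The depth limits KDM6A, KDM4B and KDM6B most, which had 353, 420 and 483 fragments in their lowest library.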
